A study of Mus musculus with 9 samples.

Results

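The 34 genes described here carry out glycolysis or belong to the transcriptional response to low oxygen. They were picked as a list of symbols, and each symbol was looked up in the deposited count table. All 34 of 34 were found among the 49671 genes of the table. They cover 7 roles: glucose and lactate transport (Slc2a1, Slc16a3), the steps from hexokinase to aldolase (Hk1, Hk2, Gpi1, Pfkl, Pfkm, Pfkp, Aldoa, Aldoc), the steps from triose phosphate to pyruvate (Tpi1, Gapdh, Pgk1, Pgam1, Eno1, Eno2, Pkm), the fate of pyruvate (Ldha, Pdk1), the regulators of phosphofructokinase (Pfkfb3, Pfkfb4), oxygen sensing and HIF (Hif1a, Egln1, Egln3, Mxi1, Kdm3a) and effectors induced by hypoxia (Vegfa, Adm, Bnip3, Bnip3l, Ndrg1, Ankrd37, Car9, Ero1l).

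Glycolysis splits glucose into pyruvate and yields ATP without oxygen, and many tumour cells keep it fast even where oxygen is present. When oxygen is low, the EGLN prolyl hydroxylases no longer mark the HIF alpha subunits for destruction by the VHL ubiquitin ligase, and HIF dimers then bind the core sequences ACGTG or GCGTG and switch on glucose transport, most glycolytic enzymes and genes for blood vessel growth, mitochondrial turnover and pH control. In pancreatic ductal adenocarcinoma, a tumour with poor blood supply, this programme is known as a prominent feature of the cancer cells.

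The libraries came from the mouse pancreatic cancer line Panc02, cultured in DMEM with serum and given no treatment. The groups were KO_1E7, a clone whose label gives the VPAC2 receptor (gene Vipr2, ligand vasoactive intestinal peptide) as knocked out, CRISPR_1G2, a clone labelled CRISPR-wild type, and the unedited parental line, with 3 libraries each. The series was made to study the role of VPAC2 in tumour cell growth. Each edited group was 1 single clone, so the edit and the clone cannot be told apart, and the design text counts both clones among the knockout cells although the genotype label of CRISPR_1G2 says wild type. Vipr2 was too rare to check the labels, with 1, 2 and 1 counts in KO_1E7, 1, 13 and 12 in CRISPR_1G2 and 6, 3 and 12 in parental.

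The libraries held 27898705 to 51878289 counts on genes. Summed levels of 10 duct markers were 896 to 2113 CPM (counts relative to the TMM-scaled library size), with 9 of 10 at 1 CPM or more on average. The sums of the immune, endothelial, acinar and erythroid lists stayed at or below 31.3 CPM. The fibroblast list summed to 25.2 to 74.3 CPM, with 5 of 8 genes at 1 CPM or more on average, and the islet list to 22.0 to 72.3 CPM, with 5 of 8 genes at 0 in every library. Both sums were highest in CRISPR_1G2 3, and the islet sum came almost wholly from 1 gene, Pdx1, at 72.3 CPM there. The immune and endothelial sums were also highest in CRISPR_1G2 3, and the duct sum was lowest there. CRISPR_1G2 3 and parental 3 stood apart from the other 7 libraries. The p53 target Mdm2 was at 3910 CPM in CRISPR_1G2 3 and 1857 CPM in parental 3, against 646 to 1173 CPM elsewhere. Cdkn1a, a cell cycle inhibitor, was at 480 CPM in CRISPR_1G2 3 and 189 CPM in parental 3, against 31.8 to 72.9 CPM elsewhere, and Hmgcs1 of sterol synthesis was at 71.9 CPM in CRISPR_1G2 3 and 51.4 CPM in parental 3, against 212 to 600 CPM elsewhere. A ribosomal RNA gene, CT010467.1, took 15.3% of counts in parental 3 and 0.465% to 1.04% in the others. The third library of each group carried the word NSG in the name of its deposited file where the other 6 carried a date, and no label explains the word.

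The 34 genes together took 1.96%, 2.29% and 1.84% of counts in KO_1E7, 2.28%, 2.31% and 1.16% in CRISPR_1G2 and 1.86%, 2.30% and 0.962% in parental. The share was lowest in the libraries that stood apart. Per kilobase of exon, 9 members exceeded 100 RPKM (CPM per kilobase of exon) on average, 23 lay between 1 and 100 RPKM and 2 lay below 1 RPKM. Gapdh, which oxidises glyceraldehyde 3-phosphate, led with 799 RPKM over the 9 libraries. It was followed by the pyruvate kinase gene Pkm (781 RPKM), the lactate dehydrogenase gene Ldha (564 RPKM), the enolase gene Eno1 (513 RPKM) and the phosphoglycerate kinase gene Pgk1 (481 RPKM). Outside the pathway itself, Vegfa (178 RPKM), which encodes the main growth factor for blood vessels, and Hif1a (77.9 RPKM), which encodes the oxygen-regulated HIF subunit, were the most abundant. The ranges of neighbours in this order overlapped over the 9 libraries for all 33 neighbouring pairs. The lactate exporter gene Slc16a3 was nearly silent, at 0.363 to 0.984 CPM, and the neuronal enolase gene Eno2 had 1 to 15 counts per library and was the 1 member too low to test.

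**Figure D1:**
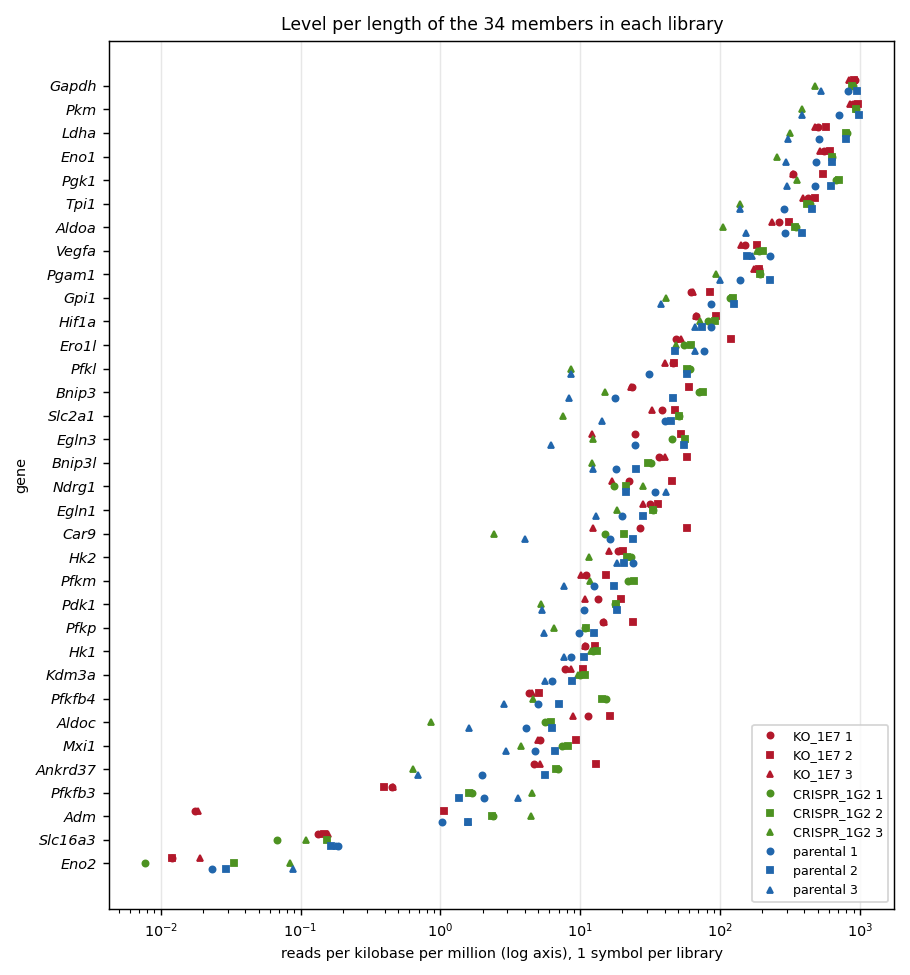
Level per length of each member on a log axis (RPKM, CPM per kilobase of exon), with 1 symbol per library and groups coloured, ordered by the mean over 9 libraries from Eno2 at the bottom to Gapdh at the top. Triangles of CRISPR_1G2 and parental, the third libraries, lie left of the other symbols for most glycolytic enzymes and right of them for Pfkfb3.

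Promoter sequence was read for the members on which the results below turn: Pfkfb3, the only member called between groups, with both of its annotated starts; Slc2a1 and Pfkl, with the largest differences among the 7 members whose shift in library 3 differed between KO_1E7 and CRISPR_1G2; Car9, a classical target of HIF; and Vegfa, a hypoxia gene that was not called between groups, also with both annotated starts. Each line gives the 250 bases before an annotated start in RefSeq on GRCm38.p6, 5′ to 3′ on the strand of the gene. Capitals mark ACGTG or GCGTG on either strand (read as CACGT or CACGC on the strand shown), and where ACGTG on both strands overlaps, the merged run CACGTG is in capitals.
Pfkfb3 start 1, chr2:11553930-11554179, minus strand: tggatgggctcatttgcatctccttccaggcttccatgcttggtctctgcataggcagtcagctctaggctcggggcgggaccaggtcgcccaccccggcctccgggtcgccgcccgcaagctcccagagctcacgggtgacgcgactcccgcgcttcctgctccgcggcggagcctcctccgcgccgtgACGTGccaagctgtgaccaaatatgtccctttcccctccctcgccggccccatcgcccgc
Pfkfb3 start 2, chr2:11502091-11502340, minus strand: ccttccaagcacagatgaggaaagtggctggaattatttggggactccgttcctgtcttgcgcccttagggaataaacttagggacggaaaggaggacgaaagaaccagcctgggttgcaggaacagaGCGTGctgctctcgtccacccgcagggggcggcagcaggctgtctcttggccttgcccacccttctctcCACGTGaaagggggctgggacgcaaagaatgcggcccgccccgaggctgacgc
Slc2a1, chr4:119108495-119108744, plus strand: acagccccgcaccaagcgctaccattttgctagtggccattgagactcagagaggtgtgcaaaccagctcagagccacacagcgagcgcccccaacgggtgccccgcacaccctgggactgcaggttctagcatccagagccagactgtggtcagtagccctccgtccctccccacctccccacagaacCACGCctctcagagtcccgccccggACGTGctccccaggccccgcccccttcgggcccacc
Pfkl, chr10:78009808-78010057, minus strand: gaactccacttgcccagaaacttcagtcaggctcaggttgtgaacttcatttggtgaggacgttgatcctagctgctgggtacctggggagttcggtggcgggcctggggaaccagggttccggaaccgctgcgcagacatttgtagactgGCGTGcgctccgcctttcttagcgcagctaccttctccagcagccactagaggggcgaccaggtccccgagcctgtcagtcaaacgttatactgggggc
Car9, chr4:43506776-43507025, plus strand: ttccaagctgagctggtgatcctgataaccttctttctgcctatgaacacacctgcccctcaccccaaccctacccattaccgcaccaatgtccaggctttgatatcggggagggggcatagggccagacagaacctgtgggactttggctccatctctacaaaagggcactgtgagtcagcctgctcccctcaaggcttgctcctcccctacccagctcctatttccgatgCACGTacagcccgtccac
Vegfa start 1, chr17:46032378-46032627, minus strand: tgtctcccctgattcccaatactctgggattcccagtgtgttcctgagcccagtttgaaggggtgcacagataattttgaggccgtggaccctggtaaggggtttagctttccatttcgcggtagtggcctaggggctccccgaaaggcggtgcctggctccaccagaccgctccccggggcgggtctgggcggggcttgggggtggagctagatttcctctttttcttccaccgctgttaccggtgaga
Vegfa start 2, chr17:46025164-46025413, minus strand: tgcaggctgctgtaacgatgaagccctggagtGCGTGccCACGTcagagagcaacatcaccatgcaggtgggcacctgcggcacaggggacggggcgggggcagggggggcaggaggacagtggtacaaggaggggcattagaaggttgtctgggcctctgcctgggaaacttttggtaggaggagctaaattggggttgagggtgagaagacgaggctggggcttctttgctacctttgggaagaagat
Over all members, 32 of 34 had at least 1 promoter in the table, 50 promoters in all, and Ndrg1 and Bnip3l had none. ACGTG stood in 23 of 50 member windows (46%), against 16.57% of all 32851 windows of the same length. GCGTG stood in 24 of 50 windows, against 28.16% of all. At least 1 of the 2 sequences was present in 38 of 50 (76%), against 38.6% of all, and 29 members had it in some window. Vegfa was among these only through start 2, since the window of start 1 held neither sequence. The windows of Vegfa start 2, Pfkfb3 start 2 and Pfkl lie inside the gene, so they can hold transcribed sequence and need not be promoters. Those of Pfkfb3 start 1, Slc2a1 and Car9 reach partly into the gene. The marked sequences of Pfkfb3 start 1 and Car9 lie in that part. Member windows were also richer in G and C, with a median of 60.2% against 52.4% for all windows, and the part of base composition in these shares was not tested. Some windows of Aldoa, Eno1 and Pfkm overlap, so the same match was counted in more than 1 window. Such overlap over all windows was not counted. A match is a string of letters, not an occupied site.

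Between KO_1E7 and parental, Pfkfb3 fell and no other member passed the test across all genes at an adjusted p of 0.05. This was 0 members higher and 1 lower of 33 tested, where 5.42% of all 15766 genes tested were called, 2.54% higher and 2.87% lower. At an unadjusted p below 0.05 there were 5 members, where 23.7% of all genes had such a p. DESeq2 called 1 member higher, where it called 6.96% of all genes higher, and 1 lower, where it called 8.08% lower. The estimates of 21 members lay above 0, where those of 47.8% of all genes did, with a median log2 fold change of 0.24 over members and -0.03 over all genes. Without KO_1E7 2, CRISPR_1G2 3 and parental 3 the members' median was -0.25, so its sign rested on those libraries.

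Between CRISPR_1G2 and parental, 0 members were called by edgeR, where 0.254% of all genes were called, and 0 by DESeq2, where 1.5% were. At an unadjusted p below 0.05 there were 3 members, where 7.73% of all genes had such a p. The median log2 fold change of the members was 0.18, against 0.02 over all genes. Between KO_1E7 and CRISPR_1G2, Pfkfb3 was again the 1 member called, lower in KO_1E7, where 12.7% of all genes were called and 7.03% were called lower. The members' median there was 0.06, against -0.03 over all genes. The 3 contrasts share libraries pairwise, so these results are not independent. An F-test for any difference among the groups called Pfkfb3 alone of the members (adjusted p = 0.029), where 8.54% of all genes were called.

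**Figure D2:**
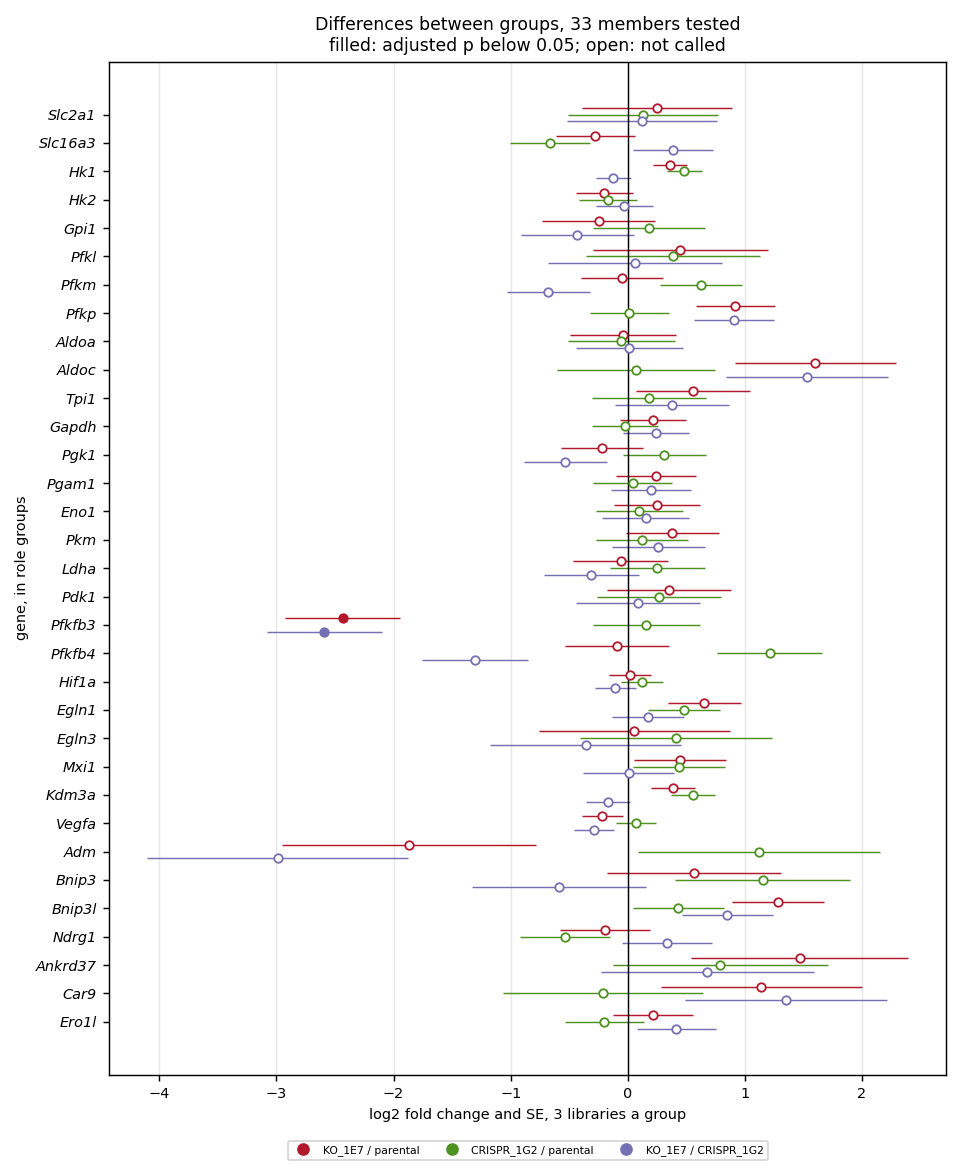
Log2 fold change and SE of the 33 members tested in KO_1E7 against parental, CRISPR_1G2 against parental and KO_1E7 against CRISPR_1G2, 3 libraries a group. Filled symbols passed an adjusted p of 0.05, which were Pfkfb3 at -2.43 and -2.59 in the contrasts with KO_1E7, and no other member.

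Pfkfb3 (ENSMUSG00000026773, chr2:11471433-11554077 on GRCm38, minus strand) encodes an enzyme that makes fructose 2,6-bisphosphate, the strongest activator of phosphofructokinase. It was at 3.39, 2.97 and 3.43 CPM in KO_1E7, 12.8, 12.0 and 34.3 CPM in CRISPR_1G2 and 15.6, 10.2 and 27.2 CPM in parental. All 3 KO_1E7 libraries lay below all 6 others, and the third libraries of CRISPR_1G2 and parental were the highest. The log2 fold change was -2.43 ± 0.49 (SE, n = 3 a group, adjusted p = 0.0303) in KO_1E7 against parental and -2.59 ± 0.49 (adjusted p = 0.0136) in KO_1E7 against CRISPR_1G2. In CRISPR_1G2 against parental it was 0.16 ± 0.46 (adjusted p = 0.985). The estimate against parental stayed between -1.91 and -2.70 under every alternative run, but the call was lost when a single library was left out: KO_1E7 1 (adjusted p = 0.120), KO_1E7 2 (0.0795), KO_1E7 3 (0.137), parental 1 (0.0773) or parental 3 (0.0695). Against CRISPR_1G2 the call was lost without KO_1E7 1 (0.0618) or KO_1E7 3 (0.0663). Over all alternatives the adjusted p ranged from 2.7e-05 to 0.137 against parental and from 2.9e-06 to 0.0663 against CRISPR_1G2. Counts from bulk cells cannot tell a lower level in every cell from fewer cells that express the gene. In the 6 dated libraries alone Pfkfb3 was lower in KO_1E7 by the same test, at -2.02 ± 0.23 against parental (adjusted p = 0.0101) and -1.97 ± 0.23 against CRISPR_1G2 (adjusted p = 0.0046).

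Pfkfb4 (ENSMUSG00000025648, chr9:108991778-109032228, plus strand), another enzyme that makes and breaks down fructose 2,6-bisphosphate, was called between the clones under some settings and not with all libraries in edgeR. It was at 20.9, 24.8 and 21.9 CPM in KO_1E7, 74.5, 69.9 and 22.4 CPM in CRISPR_1G2 and 24.2, 34.1 and 13.8 CPM in parental. CRISPR_1G2 1 and 2 were far above the other 7 libraries, while CRISPR_1G2 3 lay among them. With all libraries the estimate in KO_1E7 against CRISPR_1G2 was -1.30 ± 0.45 and did not pass (adjusted p = 0.094). It passed in DESeq2 (0.0264) and without CRISPR_1G2 3 in edgeR (adjusted p = 0.0136), and over the alternatives its adjusted p ranged from 9.9e-05 to 0.25. The estimate in CRISPR_1G2 against parental was 1.21 ± 0.45 (adjusted p = 0.565). Of the summed RPKM of both genes, Pfkfb3 made up 9.48%, 7.18% and 9.19% in KO_1E7, 9.96%, 9.99% and 49.6% in CRISPR_1G2 and 29.4%, 16.2% and 55.9% in parental. Pfkfb4 was thus the more abundant form in each library except parental 3, and CRISPR_1G2 1 and 2 had a share close to that of KO_1E7 with higher levels of both genes.

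**Figure D3:**
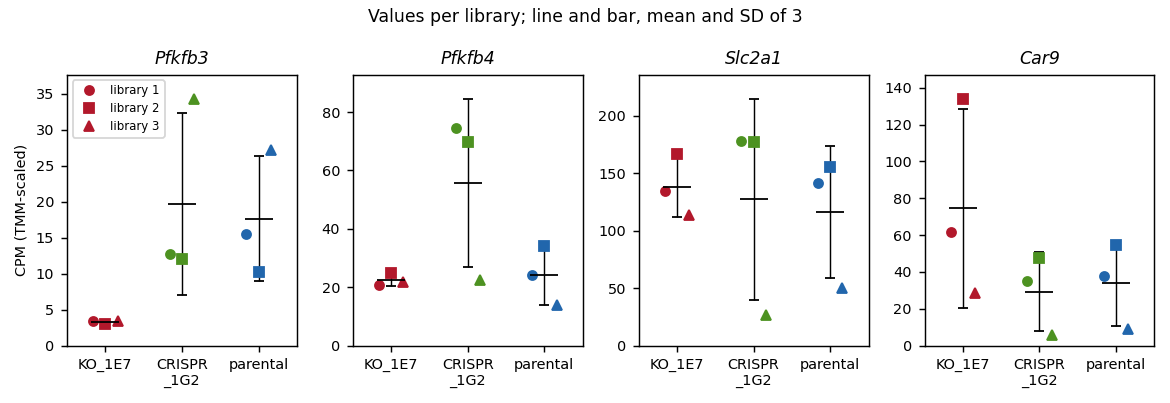
CPM of Pfkfb3, Pfkfb4, Slc2a1 and Car9 in each library (circle, square and triangle for libraries 1, 2 and 3), with mean and SD of each group as line and bar. Pfkfb3 separates KO_1E7 (2.97 to 3.43 CPM) from both other groups, and the triangle is the highest symbol of CRISPR_1G2 and parental for Pfkfb3 and the lowest for the other 3 genes.

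Slc2a1 (ENSMUSG00000028645, chr4:119108711-119137983, plus strand) encodes GLUT1, the main glucose transporter of proliferating cells. It was at 134, 166 and 114 CPM in KO_1E7, 178, 177 and 26.3 CPM in CRISPR_1G2 and 142, 156 and 50.3 CPM in parental. The groups overlapped, and the lowest values were those of CRISPR_1G2 3 and parental 3. The estimate in KO_1E7 against parental was 0.25 ± 0.64 on the log2 scale (adjusted p = 0.854) and in CRISPR_1G2 against parental 0.13 ± 0.64 (adjusted p = 0.989). In the contrast of the clones it was 0.12 ± 0.64 (adjusted p = 0.926). Without KO_1E7 2, CRISPR_1G2 3 and parental 3 the contrast of the clones was -0.51 (adjusted p = 0.00605), so its direction rested on those libraries. Over all alternatives its adjusted p ranged from 0.00605 to 0.99.

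Among the enzymes from hexokinase to aldolase no member was called between groups. Aldoc (ENSMUSG00000017390, chr11:78322968-78327781, plus strand), the minor aldolase gene, had the highest estimate. It was at 36.7, 53.0 and 28.8 CPM in KO_1E7, 18.1, 20.1 and 2.81 CPM in CRISPR_1G2 and 13.3, 20.5 and 5.25 CPM in parental, so every KO_1E7 library lay above every other. The log2 fold change was 1.60 ± 0.69 in KO_1E7 against parental (adjusted p = 0.202), and without CRISPR_1G2 3 alone the adjusted p was 0.0484, in a range of 0.0135 to 0.462 over the alternatives. In the dated libraries Aldoc was higher in KO_1E7, by 1.41 ± 0.25 against parental (adjusted p = 0.0235) and by 1.23 ± 0.25 against CRISPR_1G2 (adjusted p = 0.0209). Aldoa (ENSMUSG00000030695, chr7:126795234-126809108, minus strand), the main aldolase gene, was at 988, 1171 and 880 CPM in KO_1E7, 1317, 1296 and 397 CPM in CRISPR_1G2 and 1101, 1446 and 578 CPM in parental. Its groups overlapped, and in KO_1E7 against parental the estimate was -0.04 ± 0.46 (adjusted p = 0.971). Aldoc made up 4.24% ± 0.668 of the summed aldolase RPKM in KO_1E7, 1.38% ± 0.501 in CRISPR_1G2 and 1.34% ± 0.287 in parental (SD, n = 3 each).

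The phosphofructokinase genes, whose products commit glucose to glycolysis, differed in their make-up between libraries; Pfkl, Pfkm, Pfkp, Hk1 and Hk2 are given after their values were seen. Pfkl (ENSMUSG00000020277, chr10:77986947-78010083, minus strand), the liver-type gene, was at 201, 205 and 178 CPM in KO_1E7, 268, 254 and 37.5 CPM in CRISPR_1G2 and 136, 254 and 37.9 CPM in parental. It was the leading form by RPKM in 8 of 9 libraries, and in CRISPR_1G2 3 the muscle-type gene Pfkm led with 44.1% against 31.8% for Pfkl. The platelet-type gene Pfkp was at 135, 223 and 138 CPM in KO_1E7, 102, 103 and 60.7 CPM in CRISPR_1G2 and 92.6, 118 and 52.1 CPM in parental. All KO_1E7 values lay above all others, yet the estimate against parental, 0.92 ± 0.34, did not pass (adjusted p = 0.148). Exons of Pfkp overlap Pitrm1 and exons of Pfkm overlap Senp1 on the other strand, and reads of such pairs cannot be told apart without strand. Of the hexokinase genes, Hk2 held 61.5% ± 1.64 of the summed RPKM in KO_1E7, 58.8% ± 8.44 in CRISPR_1G2 and 70.2% ± 3.79 in parental. Hk1 was at 91.5 to 109 CPM in KO_1E7, 102 to 112 CPM in CRISPR_1G2 and 64.7 to 90.2 CPM in parental, with both clones above parental and no call (adjusted p = 0.185 and 0.46).

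The genes from triose phosphate to pyruvate showed no call between groups, with log2 estimates of -0.22 to 0.56 in KO_1E7 against parental over the 6 tested. Gapdh (ENSMUSG00000057666, chr6:125161715-125166467, minus strand) was at 3829, 3725 and 3436 CPM in KO_1E7, 3692, 3635 and 1962 CPM in CRISPR_1G2 and 3370, 3915 and 2171 CPM in parental. Its 7 libraries other than CRISPR_1G2 3 and parental 3 lay within 3370 to 3915 CPM. The estimate in KO_1E7 against parental was 0.22 ± 0.28 (adjusted p = 0.691). Reads of Eno1 may be shared with Eno1b, a near-identical copy that had 1665 counts in all, and those of Pkm with an overlapping gene on the same strand.

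At the pyruvate branch, Ldha (ENSMUSG00000063229, chr7:46841475-46855627, plus strand), whose product turns pyruvate into lactate, was at 1651, 1883 and 1583 CPM in KO_1E7, 2690, 2623 and 1038 CPM in CRISPR_1G2 and 1698, 2624 and 1013 CPM in parental. Pdk1 (ENSMUSG00000006494, chr2:71873224-71903858, plus strand) encodes a kinase that blocks pyruvate dehydrogenase. It was at 104, 151 and 84.3 CPM in KO_1E7, 138, 140 and 40.9 CPM in CRISPR_1G2 and 82.5, 141 and 41.7 CPM in parental. In both genes the groups overlapped, and KO_1E7 2 was the highest of the 9 libraries for Pdk1. The estimates in KO_1E7 against parental were -0.06 ± 0.41 for Ldha (adjusted p = 0.949) and 0.35 ± 0.53 for Pdk1 (adjusted p = 0.733).

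Among the genes of oxygen sensing, Hif1a (ENSMUSG00000021109, chr12:73901375-73947530, plus strand) varied least. It was at 396, 554 and 399 CPM in KO_1E7, 484, 540 and 426 CPM in CRISPR_1G2 and 508, 435 and 389 CPM in parental. Its groups overlapped, with a log2 estimate of 0.02 ± 0.18 in KO_1E7 against parental (adjusted p = 0.967). HIF alpha is controlled mostly as a protein, which these counts do not measure. Egln1 (ENSMUSG00000031987, chr8:124908587-124949324, minus strand) encodes PHD2, the main HIF prolyl hydroxylase. It was at 114, 129 and 101 CPM in KO_1E7, 120, 119 and 65.4 CPM in CRISPR_1G2 and 71.4, 101 and 46.5 CPM in parental, with KO_1E7 3 just above parental 2, and the estimate in KO_1E7 against parental was 0.65 ± 0.31 (adjusted p = 0.241).

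Egln3 (ENSMUSG00000035105, chr12:54178981-54203860, minus strand) encodes PHD3, a hydroxylase that is itself induced by HIF. It was at 65.2, 139 and 32.4 CPM in KO_1E7, 121, 149 and 32.7 CPM in CRISPR_1G2 and 65.8, 146 and 16.5 CPM in parental. In every group the third library was the lowest and library 2 the highest. The estimate in KO_1E7 against parental was 0.05 ± 0.82 (adjusted p = 0.978), with a spread inside groups far above the difference between them. Mxi1, a MYC antagonist, and Kdm3a, a histone demethylase, ranged from 16.5 to 52.0 and from 45.9 to 88.4 CPM over the 9 libraries.

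The hypoxia effectors were divided. Vegfa (ENSMUSG00000023951, chr17:46016993-46032369, minus strand) was at 642, 782 and 601 CPM in KO_1E7, 813, 867 and 792 CPM in CRISPR_1G2 and 968, 665 and 721 CPM in parental. KO_1E7 lay below CRISPR_1G2 in every library, yet the estimate of -0.29 ± 0.17 did not pass (adjusted p = 0.308). Car9 (ENSMUSG00000028463, chr4:43506966-43513729, plus strand), which encodes a carbonic anhydrase at the cell surface and is a widely used marker of hypoxia, was at 61.4, 134 and 28.3 CPM in KO_1E7, 34.8, 47.3 and 5.59 CPM in CRISPR_1G2 and 37.6, 54.6 and 9.20 CPM in parental. The groups overlapped, and the third library was the lowest of each group. The estimate in KO_1E7 against parental was 1.14 ± 0.86 (adjusted p = 0.461).

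Adm (ENSMUSG00000030790, chr7:110627661-110629820, plus strand), which encodes the vessel-dilating peptide adrenomedullin, had 1, 90 and 1 counts in KO_1E7, 105, 120 and 234 in CRISPR_1G2 and 61, 93 and 92 in parental. KO_1E7 1 and 3 were almost empty, and KO_1E7 2 was at 1.71 CPM, within the 1.67 to 2.57 CPM of parental. With all libraries the estimate in KO_1E7 against parental was -1.87 ± 1.08 (adjusted p = 0.336). Without KO_1E7 2 Adm passed, with an adjusted p of 0.00325 against parental and 0.000854 against CRISPR_1G2, so 1 library decided that call. Over the alternatives the adjusted p ranged from 0.000116 to 0.58 against parental and from 2.5e-05 to 0.278 against CRISPR_1G2. The pooled level of KO_1E7 1 and 3 was 0.0128 of that of parental (95% exact interval 0.00155 to 0.0469, counting error only). These libraries were picked for their low counts and KO_1E7 2 was left out, so the interval does not describe the group. KO_1E7 2 was also the highest library of its group for 30 of 33 members, where 37.8% of all genes had their highest value of that group in it.

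Bnip3 and Bnip3l encode receptors that mark mitochondria for removal. Bnip3l (ENSMUSG00000022051, chr14:66985239-67008877, minus strand) was at 140, 224 and 155 CPM in KO_1E7, 125, 117 and 46.9 CPM in CRISPR_1G2 and 69.3, 96.4 and 47.9 CPM in parental, with KO_1E7 above all others. Its estimate in KO_1E7 against parental, 1.28 ± 0.39, did not pass in edgeR with all libraries (adjusted p = 0.0911) and passed in DESeq2 (0.015) and in the dated libraries (1.14 ± 0.25, adjusted p = 0.0413). Without CRISPR_1G2 3 it also passed in edgeR (adjusted p = 0.0223), in a range of 0.00442 to 0.23 over the alternatives. Bnip3 (ENSMUSG00000078566, chr7:138890836-138909519, minus strand) was at 52.8, 136 and 51.9 CPM in KO_1E7, 159, 169 and 33.9 CPM in CRISPR_1G2 and 39.9, 105 and 18.7 CPM in parental, with wide overlap and no call. Bnip3l held 57.9% ± 7.70 of their summed RPKM in KO_1E7, 35.0% ± 8.60 in CRISPR_1G2 and 48.6% ± 12.6 in parental (SD, n = 3 each).

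Ankrd37 (ENSMUSG00000050914, chr8:45996902-46005707, minus strand), a HIF target that encodes an ankyrin repeat protein, was at 7.21, 19.9 and 7.97 CPM in KO_1E7, 10.6, 10.4 and 0.977 CPM in CRISPR_1G2 and 3.03, 8.61 and 1.06 CPM in parental. The estimate in KO_1E7 against parental was 1.47 ± 0.93 (adjusted p = 0.377), and its exons overlap Ufsp2 on the other strand, a gene with 16532 counts against its 2689. Ndrg1, a stress-response gene, ranged from 110 to 298 CPM and Ero1l, which encodes an oxidase of the endoplasmic reticulum, from 208 to 527 CPM, both with their highest value in KO_1E7 2 and with overlapping groups.

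Counted by separation alone, 5 of 33 members had every KO_1E7 library above every parental library (Aldoc, Bnip3l, Egln1, Hk1 and Pfkp), where 17.2% of all genes did, and 2 had every one below (Pfkfb3 and Slc16a3), where 17.3% of all genes did. Between CRISPR_1G2 and parental 3 members were separated upward (Adm, Hk1 and Kdm3a; 6.64% of all genes) and 1 downward (Slc16a3; 6.45%). Between KO_1E7 and CRISPR_1G2 there were 3 upward (Aldoc, Bnip3l and Pfkp; 19.2%) and 3 downward (Adm, Pfkfb3 and Vegfa; 19.4%). These shares of members were near the background or below it. Members on chromosome 7 (Gpi1, Ldha, Adm, Aldoa and Bnip3) sat on a chromosome whose genes had a median log2 fold change of -0.45 in KO_1E7 against parental. Relative to that median, Ldha was 0.39 and Aldoa 0.41 higher. Ankrd37 and Egln1 on chromosome 8 sat beside a median of 0.31, and Bnip3l on chromosome 14 beside 0.28, whose part in these estimates was not tested.

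**Figure D4:**
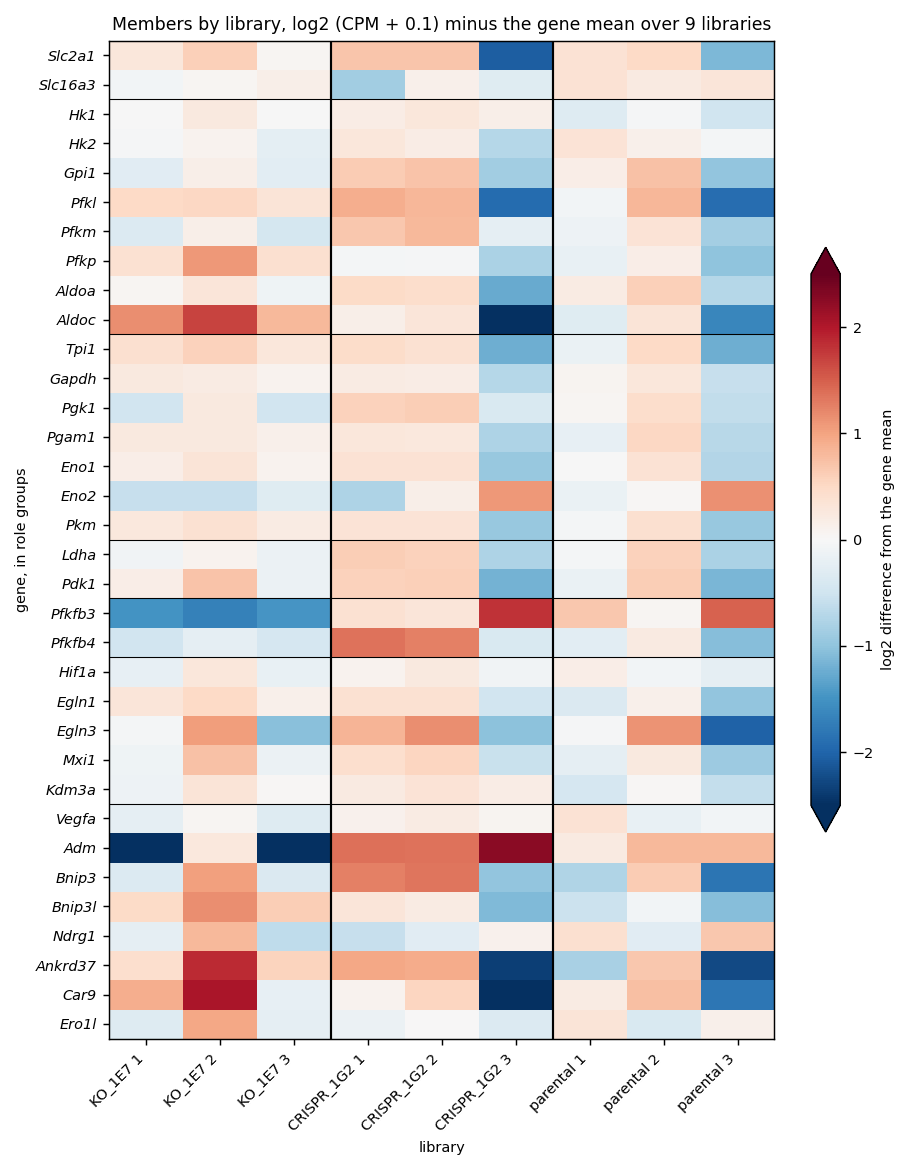
Each member in each library as log2 (CPM + 0.1) minus the mean of the gene over 9 libraries, with rows grouped by role and black lines between groups. The columns of CRISPR_1G2 3 and parental 3 are blue for most glycolytic enzymes and red for Pfkfb3, the row of Pfkfb3 is blue across KO_1E7, and the row of Adm is dark blue in KO_1E7 1 and 3.

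Members were also called between libraries of 1 group, in CRISPR_1G2 and in parental. In CRISPR_1G2 3 most members were lower than in CRISPR_1G2 1 and 2: 19 of 33 fell and 1 rose, where 14.9% of all genes fell and 14.6% rose (29.5% called in all). In parental 3 against parental 1 and 2, 15 fell and 1 rose, where 10.8% of all genes fell and 6.65% rose (17.5% called in all). In KO_1E7 3 against KO_1E7 1 and 2, edgeR called 0 members and 0 of 15766 genes, with 3 members and 3.13% of all genes at an unadjusted p below 0.05. DESeq2 called 0 members there and 0.0507% of all genes. The median log2 difference of the members was -0.27 in KO_1E7 3, -1.05 in CRISPR_1G2 3 and -0.95 in parental 3, against -0.01, -0.01 and -0.02 over all genes. In each of these contrasts 1 library stands alone and is assumed to vary like the others, so the p-values describe that library and not a condition. The counts depended on which libraries set the spread: without CRISPR_1G2 1, and likewise without CRISPR_1G2 2, 10 members were called in CRISPR_1G2 3 (7.91% and 9.29% of all genes) and 4 in parental 3 (5.55% and 5.23%). Without parental 2, 9 were called in parental 3 (6.31%).

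The member that rose in both was Pfkfb3, by 1.46 ± 0.25 in CRISPR_1G2 3 (adjusted p = 0.00708) and 1.08 ± 0.25 in parental 3 (adjusted p = 0.0306). The members that fell in both numbered 14, or 73.7% of those in CRISPR_1G2 3 and 93.3% of those in parental 3. They were Slc2a1, Gpi1, Pfkl, Pfkm, Aldoa, Aldoc, Tpi1, Gapdh, Eno1, Pkm, Ldha, Pfkfb4, Egln1 and Car9. No hexokinase gene was among them, and neither Pgk1 nor Pgam1 was. The same overlap was not counted over all genes. CRISPR_1G2 3 and parental 3 deviated together across genes (r = 0.750), so the shares of 73.7% and 93.3% need not be particular to the members. Slc2a1 fell by 2.75 on the log2 scale in CRISPR_1G2 3 (SE 0.19, adjusted p = 0.000914) and by 1.56 in parental 3 (SE 0.17, adjusted p = 0.00733). Pfkl fell by 2.80 in CRISPR_1G2 3 (SE 0.39, adjusted p = 0.00487) and by 2.36 in parental 3 (SE 0.38, adjusted p = 0.0147). Egln3 was called only in parental 3, and Ankrd37, Bnip3l, Hk2, Pdk1 and Pgam1 only in CRISPR_1G2 3, and for none of these did the difference between the libraries pass.

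Not all of the programme was called in these libraries. Vegfa was at -0.09 ± 0.23 in CRISPR_1G2 3 (adjusted p = 0.814) and -0.18 ± 0.24 in parental 3 (adjusted p = 0.629). Hif1a was at -0.27 ± 0.22 and -0.28 ± 0.22, and Hk1, Kdm3a, Adm, Ndrg1, Ero1l and Slc16a3 did not pass in either library. Bnip3, Mxi1, Pfkp and Pgk1 did not pass either. Like Hif1a, Hk1 and Kdm3a, each was nevertheless lower in both than in libraries 1 and 2 of the group. Bnip3, for example, was at 33.9 CPM in CRISPR_1G2 3, against 159 and 169 CPM, and at 18.7 CPM in parental 3, against 39.9 and 105 CPM. CRISPR_1G2 3 and parental 3 were the lowest pair of the 9 libraries for 19 of 33 members, where 19.9% of all genes were so placed. Mdm2, Cdkn1a and Hmgcs1 moved with the same libraries, as did the ribosomal RNA share in parental 3. The fibroblast sum and Pdx1 of the islet list were highest in CRISPR_1G2 3, and the duct sum was lowest there. The part of all of these in the differences was not tested.

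**Figure D5:**
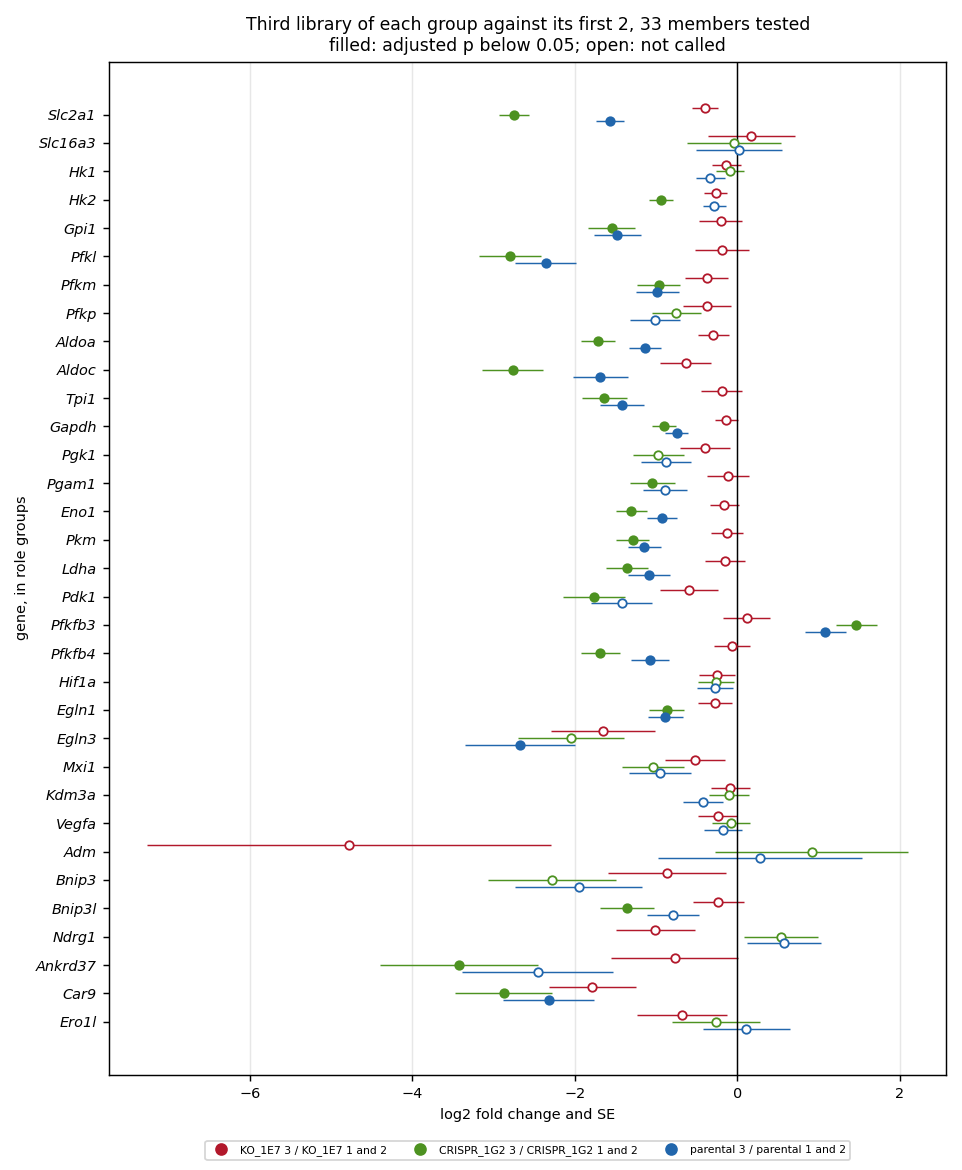
Log2 fold change and SE of the third library of each group against its first 2, for 33 members. Filled symbols passed an adjusted p of 0.05: 20 for CRISPR_1G2 3 (19 of them below 0), 16 for parental 3 (15 below 0) and 0 for KO_1E7 3, whose open symbols lie mostly between 0 and -1.

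The difference of these shifts was tested directly. Between KO_1E7 and CRISPR_1G2, 7 members differed, all less lowered in KO_1E7 3, where 10.8% of all genes differed and 5.94% were less lowered or higher there. Slc2a1 showed a difference of 2.35 ± 0.23 (adjusted p = 0.0086) and Pfkl of 2.61 ± 0.48 (adjusted p = 0.0277). Aldoc, Pfkfb4, Aldoa, Pkm and Eno1 had differences of 1.14 to 2.13. Without CRISPR_1G2 1, and likewise without CRISPR_1G2 2, 0 members and 0% of all genes were called. Between KO_1E7 and parental edgeR called 0 members (0.647% of all genes), DESeq2 6 (12.7% of all genes), and 11 lay at an unadjusted p below 0.05 (21.8% of all genes). Between CRISPR_1G2 and parental edgeR called 0 members (0.146% of all genes), DESeq2 1 (0.953% of all genes), and 2 lay at an unadjusted p below 0.05 (9.3% of all genes). With the third libraries of the 3 groups pooled under 1 term beside the group, the estimates of 30 of 33 members lay below 0, where 49.9% of all genes did, with a median of -0.77. In that fit edgeR called 0 members and 0% of all genes, and 25 members and 33.3% of all genes lay at an unadjusted p below 0.05. DESeq2 called 1 member higher, where it called 8.98% of all genes higher, and 24 lower, where it called 11.1% lower.

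In the 6 dated libraries, KO_1E7 against parental had 2 members higher (Aldoc and Bnip3l) and 1 lower (Pfkfb3), where 4.87% of all genes were higher and 5.84% lower, 10.7% in all. CRISPR_1G2 against parental had 0 members called (0.209% of all genes), and 4 at an unadjusted p below 0.05 (10.6% of all genes), with Pfkfb4 nearest at 1.31 ± 0.18 (adjusted p = 0.0675). KO_1E7 against CRISPR_1G2 had 1 member higher (Aldoc) and 3 lower (Pfkfb3, Pfkfb4 and Pfkm), where 9.22% of all genes were higher and 10.1% lower, 19.3% in all. Pfkfb4 fell by 1.66 there (SE 0.18, adjusted p = 0.00398) and Pfkm by 0.82 (SE 0.21, adjusted p = 0.0388).

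Other genes of sugar and oxygen metabolism were taken from 9 lists, of which 163 genes were found and 131 tested. In KO_1E7 against parental 6 rose, where 2.54% of all genes did, and 3 fell, where 2.87% did. Pdk4, another kinase that blocks pyruvate dehydrogenase, was at 1.24, 1.00 and 1.13 CPM in KO_1E7, against 0.082, 0.0552 and 0.0556 CPM in parental, and its log2 difference was 4.06 ± 0.59 (adjusted p = 0.0134). Hkdc1, a hexokinase-like gene, was at 0.226, 0.360 and 0.149 CPM in KO_1E7, against 2.02, 1.21 and 0.973 CPM in parental. Mxd4, a MYC antagonist, was at 43.3, 25.8 and 34.4 CPM in KO_1E7, against 6.64, 7.07 and 9.76 CPM in parental (2.14 ± 0.25, adjusted p = 0.0076). Phkb (1.00 ± 0.18), which encodes a subunit of the kinase that switches on glycogen breakdown, also rose, as did Bhlhe40 and Plod1. Stc2, a secreted glycoprotein, and Ube2m, which attaches NEDD8 to cullins, fell with Hkdc1. CRISPR_1G2 against parental had 0 of the 131 called, and KO_1E7 against CRISPR_1G2 had 6 higher (5.71% of all genes) and 15 lower (7.03% of all genes), with Ppp1r3b, a glycogen-targeting subunit of protein phosphatase, among the lowest (-3.0 ± 0.81, adjusted p = 0.0439).

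In the third libraries, 21 of the 131 rose and 32 fell in CRISPR_1G2 3, where 14.6% of all genes rose and 14.9% fell. In parental 3, 10 rose and 26 fell, where 6.65% of all genes rose and 10.8% fell, and 0 were called in KO_1E7 3. Txnip, an inhibitor of glucose uptake whose transcript rises with glucose, was at 458 CPM in CRISPR_1G2 3, against 9.59 and 14.7 CPM in CRISPR_1G2 1 and 2. In parental 3 it was at 281 CPM, against 14.3 and 6.1 CPM in parental 1 and 2, while KO_1E7 3 was at 21.5 CPM, against 16.7 and 22.4 CPM in KO_1E7 1 and 2. Epas1, which encodes another HIF alpha subunit, was at 9.98 CPM in CRISPR_1G2 3, against 75.4 and 78.0 CPM in CRISPR_1G2 1 and 2, and at 8.67 CPM in parental 3, against 37.9 and 59.7 CPM in parental 1 and 2. Edn1, the gene of the vessel-constricting peptide endothelin, rose by 3.79 ± 0.61 in CRISPR_1G2 3 and 3.73 ± 0.60 in parental 3. The oxidative pentose phosphate gene Pgd fell to 79.8 CPM in parental 3, against 245 and 349 CPM in parental 1 and 2.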

How the data were processed

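Poly(A) RNA was sequenced in 9 libraries, made with the NEBNext Ultra II RNA kit per the labels' protocols; this kit keeps no strand. The submitters' processing notes name bcl2fastq 2.17, the aligner STAR 2.5.2b, the build GRCm38, featureCounts of Subread 1.5.2 and DESeq2. No source used here gives the annotation release or the strand setting. The authors deposited raw counts per gene, once for each sample and once for the whole series, and these tables differed in 0 cells. The 92 spike-in controls (0.344% to 0.820% of counts) were left out. Libraries were grouped by their titles, and nothing says that replicates were separate cultures, so p-values measure only how these samples vary, possibly for technical reasons. Libraries of a group differed by a chi-square per gene of 8.84 or more, so none was taken for a duplicate.

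Tests were run on the 15766 genes that passed filterByExpr, in R 4.3.3 with the robust quasi-likelihood F-test of edgeR 4.0.16 on TMM-scaled counts, all 9 libraries in 1 fit, with Benjamini-Hochberg adjustment over all genes and a threshold of 0.05. The code was tested on simulated data. CPM used TMM-scaled library sizes, and RPKM is CPM per kilobase of the exon length in the deposited tables. The contrasts of library 3 with libraries 1 and 2 of its group, and of groups without library 3 (the dated libraries), came from a fit chosen after seeing the data. DESeq2 1.42.0 was an alternative, beside other scaling, filters, left-out libraries and a replicate block. With 3 libraries a group, exact permutation gives no p under 0.1, so the model across genes was the only test of single genes.

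The members and lists were chosen with earlier results of these data known. Given with every library value were members called between groups or with an absolute log2 fold change of at least 1, the most abundant member of each role, and 8 listed by symbol (Hif1a, Egln1, Egln3, Slc2a1, Ldha, Vegfa, Pdk1, Car9), 17 in all; of the other lists, called genes were named from the 8 with the largest change per contrast. Others were named after their values were seen. Like-numbered libraries deviated together in CRISPR_1G2 and parental (r = 0.437, 0.624 and 0.750 across genes). So did CRISPR_1G2 1 with parental 2 (0.692), whose file names share a date, and CRISPR_1G2 2 with parental 1 (0.378), so the number alone does not mark the pairs. For these groups the fit with the replicate block also called 0 members. Like-numbered pairs with KO_1E7 had r from -0.0293 to 0.145, with a date shared by KO_1E7 1 and parental 1 and the word NSG shared by the third libraries.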

Additional observations from a re-analysis of the deposited data

Results flagged for a closer look

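Between KO_1E7 and CRISPR_1G2, the shift of the third library against the first 2 of its group differed for 7 members in a test of the difference itself, each less lowered in KO_1E7. The log2 differences were 2.61 ± 0.48 for Pfkl (SE, adjusted p = 0.0277), 2.35 ± 0.23 for Slc2a1 (adjusted p = 0.0086) and 2.13 ± 0.46 for Aldoc (adjusted p = 0.0374). They were 1.62 ± 0.32 for Pfkfb4 (adjusted p = 0.0267), 1.42 ± 0.27 for Aldoa (adjusted p = 0.0255), 1.17 ± 0.28 for Pkm (adjusted p = 0.0428) and 1.14 ± 0.25 for Eno1 (adjusted p = 0.0353). Each rests on 1 such library a group, and 0 of the 7 were called without CRISPR_1G2 1 or without CRISPR_1G2 2, where 0% of all genes were.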

How the results depend on the processing

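Percentages in brackets are the share of all genes called under the same setting. Scaling by RLE and a filter of 1 CPM in 3 libraries left each count of members called within 1.5 times its value in the report. In KO_1E7 against parental, where 1 member was called (5.42%), DESeq2 called 2 (15%), a fit on the 2 groups alone 2 (5.79%), a replicate block 6 (8.23%) and a term for NSG 6 (13.1%). Leaving out library 3 of each group called 3 (11%), CRISPR_1G2 3 and parental 3 also 3 (21%), KO_1E7 2 as well 10 (28.3%), and single libraries 0 to 3 (0.145% without KO_1E7 3, 12.2% without CRISPR_1G2 3). In KO_1E7 against CRISPR_1G2, also 1 (12.7%), DESeq2 called 2 (21.5%), the replicate block 6 (16.6%) and the NSG term 6 (21.1%). The fit without library 3 of each group called 4 (19.8%), without CRISPR_1G2 3 and parental 3 7 (29.1%), and without KO_1E7 2 as well 15 (35.5%). Fits without single libraries called 0 to 2 (2.73% to 14.4%). For any difference, also 1 (8.54%), DESeq2 called 4 (21%), the block 5 (11.5%) and the NSG term 6 (17%). The fits without those libraries called 3 (14.6%), 6 (26.9%), 14 (33.7%) and 0 to 3 (0.761% to 12.1%). In CRISPR_1G2 against parental 0 became 1 (0.265%) without CRISPR_1G2 3 and parental 3, and 1 (2.09%) without KO_1E7 2 as well. The correlations do not pair KO_1E7 with like-numbered libraries, so the block is no pairing there. For the NSG term 0 became 25 in DESeq2 (20.1%) and 14 with no filter (5.11%), and 0 to 26 without single libraries (18 without KO_1E7 1, 6.96%, and 26 without KO_1E7 3, 37.7%). Without single libraries, the contrasts of the third libraries gave 0 to 1 in KO_1E7 (0% to 0.756%). They gave 10 to 22 in CRISPR_1G2 (7.91% to 36.3%) and 4 to 19 in parental (5.23% to 26%). The differences between those contrasts gave 6 in DESeq2 (12.7%), 8 with no filter (5.2%) and 0 to 9 without single libraries (0% to 8.42%) for KO_1E7 minus parental. For CRISPR_1G2 minus parental they gave 1 (0.953%), 1 (0.539%) and 0 to 1 (0% to 0.354%). For KO_1E7 minus CRISPR_1G2 they gave 14 (21.4%), 12 (8.95%) and 0 to 13 (0% to 18.4%). In KO_1E7 against CRISPR_1G2, Aldoa and Slc2a1 turned to -0.48 and -0.51 without KO_1E7 2, CRISPR_1G2 3 and parental 3, against 0.01 and 0.12 with all libraries. The causes were not tested. Eno2 had too few counts to test, at 1 to 15 a library. Adm had 1 count each in KO_1E7 1 and KO_1E7 3, which held 34857095 and 32907269 counts on genes. CRISPR_1G2 1 had 105 Adm counts among 27898705.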
